A study of Mus musculus with 6 samples.

Results

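Expression of Evx1, its antisense transcript Evx1as and 6 transcription factors of the primitive streak (T, Eomes, Mixl1, Gsc, Lhx1 and Sp5) was examined in day 4 embryoid bodies (EBs). These 8 genes were chosen by symbol from the 23353 genes listed in the RNA-seq table, where Evx1as appears as 5730457N03Rik. EBs are floating aggregates in which mouse embryonic stem cells (mESCs) begin to differentiate. The wildtype group was the parental W9.5 mESC line (3 libraries), and the EVX1-Δfs group was clone 14, a CRISPR-Cas9 edited derivative of it (3 libraries). Both were seeded without LIF and kept for 4 days in serum-containing medium. Per the study's methods, clone 14 is compound heterozygous, with small frameshift deletions on both alleles in the homeodomain region of Evx1 exon 2. The EVX1-Δfs group is therefore 1 clone, and anything else that sets this clone apart from its parent cannot be told apart from the edit.

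During gastrulation, epiblast cells pass through the primitive streak and leave it as mesoderm or definitive endoderm. WNT3, NODAL and BMP4 signals induce the streak, and a set of DNA-binding proteins carries out the response. EVX1 is an even-skipped class homeodomain protein of the posterior streak. T (Brachyury) and EOMES are T-box activators of the mesoderm and endoderm programmes, MIXL1 is a paired-like homeodomain protein of nascent mesendoderm, GSC and LHX1 are homeodomain proteins of the anterior streak and organizer, and SP5 is a zinc finger protein induced by WNT signalling. The question behind the comparison is whether the streak and patterning programme depends on functional EVX1.

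Transcripts of T, Eomes and Mixl1 were lower in EVX1-Δfs EBs, at 66.8%, 70.8% and 55.8% of the wildtype level. No difference was detected for Evx1, Evx1as, Gsc, Lhx1 or Sp5. Of the 3 genes that fell, Mixl1 was called in all 18 alternative fits, whereas those of T and Eomes were lost with the replicate number as a block in limma and edgeR, at fold changes that hardly moved, and were kept with that block in DESeq2. The values below are normalized counts, that is, reads per gene divided by 1 factor per library. Changes are EVX1-Δfs over wildtype on a log2(normalized count + 1) scale, and genes were called at a limma adjusted p under 0.05. In bulk RNA, fewer cells of a type and less RNA per cell cannot be told apart.

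The libraries held 7597879 to 9914471 reads assigned to genes, and the correlation of each library with the others of its group averaged 0.983 to 0.986. The first principal component (40.5% of the variance) separated the genotypes, with wildtype scores from -33.5 to -10.3 and EVX1-Δfs scores from 12.8 to 22.3. Wildtype replicate 3 stood apart from the other wildtype libraries on the second component (19.0% of the variance), at 19.9 against -16.8 and -18.5. This library had the highest wildtype value of all 8 genes, against 38.5% of all 13136 genes tested. EVX1-Δfs replicate 3 had the lowest EVX1-Δfs value of 7 of the 8 genes, against 32.1% of all genes tested. Results are therefore given with and without these libraries where that moves them.

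The edited site and the start regions of 3 of the genes are shown first, because the site lies outside all annotated Evx1as exons and because Mixl1, which was called lower, and Sp5, which was not, both carry a match to the TCF/LEF motif. The guide matched NCBIM37 (the assembly of mm9) at 1 place, chr6:52265847-52265869 on the plus strand, inside exon 2 of 3 of Evx1 (chr6:52265732-52265988). The 3 bases in capitals are the PAM, the motif Cas9 requires beside its target.

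Evx1 target site: ccagatgcgccgataccgcaCGG

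The predicted cut falls between positions 52265863 and 52265864, with 559 of the 1248 coding bases (44.8%) before it. In the GENCODE vM1 annotation Evx1 occupies chr6:52263492-52268372 on the plus strand and Evx1as occupies chr6:52258383-52264826 on the minus strand. The longer Evx1as transcript begins in the first intron of Evx1, and the shorter one begins at position 52263499, within the first exon of Evx1. Their exons overlap by 73 bases, read from opposite strands. The target site lies 1.021 kb beyond the annotated Evx1as gene. Reads per gene do not show the deletions, so the table is no check of the genotype.

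**Figure D1:**
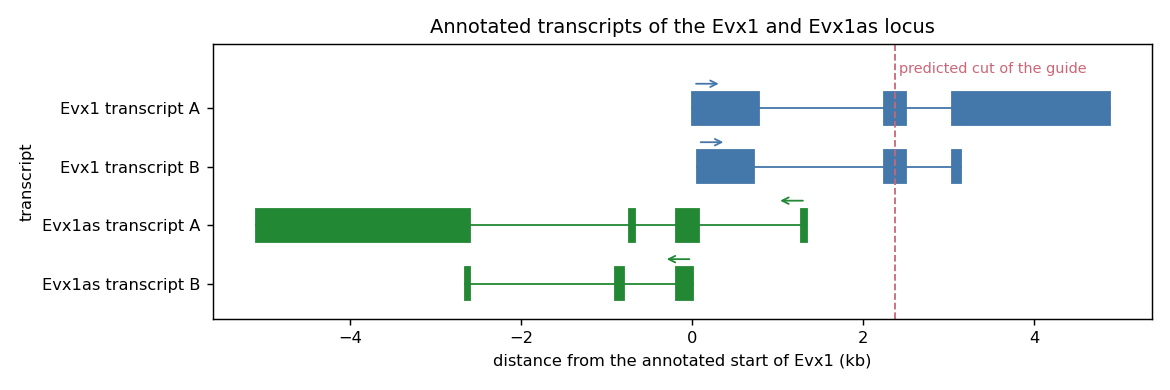
Annotated transcripts of Evx1 (blue) and Evx1as (green) by distance from the annotated start of Evx1 in kb, with boxes for exons, lines for introns and arrows for the direction of transcription. The dashed line marks the predicted cut, which crosses exon 2 of both Evx1 transcripts and no exon of Evx1as.

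The 250 bases before the annotated start of 3 genes were read from NCBIM37 in the direction of transcription, with motif matches in capitals. The Evx1 window is chr6:52263242-52263491, the Mixl1 window chr1:182627166-182627415 on the minus strand and the Sp5 window chr2:70312730-70312979.

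Evx1: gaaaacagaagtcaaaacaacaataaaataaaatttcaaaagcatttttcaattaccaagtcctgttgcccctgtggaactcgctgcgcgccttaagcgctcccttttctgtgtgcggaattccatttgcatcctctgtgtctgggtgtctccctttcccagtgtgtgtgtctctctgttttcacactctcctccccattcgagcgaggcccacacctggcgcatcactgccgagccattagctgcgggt

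Mixl1: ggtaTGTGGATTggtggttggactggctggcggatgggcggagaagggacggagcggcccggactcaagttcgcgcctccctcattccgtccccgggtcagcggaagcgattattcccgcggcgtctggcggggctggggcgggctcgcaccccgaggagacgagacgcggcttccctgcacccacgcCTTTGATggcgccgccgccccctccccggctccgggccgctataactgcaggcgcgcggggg

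Sp5: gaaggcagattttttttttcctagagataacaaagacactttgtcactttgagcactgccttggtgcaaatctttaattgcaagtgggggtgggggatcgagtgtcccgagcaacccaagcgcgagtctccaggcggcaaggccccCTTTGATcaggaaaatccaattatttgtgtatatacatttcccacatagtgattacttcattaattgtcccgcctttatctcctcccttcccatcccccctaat

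Motifs were searched on both strands as exact letters. CTTTGAT (TCF/LEF) begins 62 bases before the start of Mixl1 and 104 bases before that of Sp5, and 3.05% of 22375 windows of the same length contain it. AATNCACA (FOXH1) begins 246 bases before the start of Mixl1, where it reads on the opposite strand, and 2.90% of the windows contain it. TAATTA (a homeodomain core, 4.62% of windows) was found 152 bases before the start of the longer Evx1as transcript and before no other of the 8 genes. Per the study, this intronic start gives only a very small part of the Evx1as RNA in day 4 EBs. TAATCC (GSC and OTX, 6.46%) and AGGTGTGA (a T-box half-site, 0.943%) were in none of the 8 windows. The Mixl1 window is rich in G and C (71.6%, 31 CpG), whereas those of Evx1 (49.6%, 10 CpG) and Sp5 (46.0%, 6 CpG) lie below the median window GC content of 54.0%. A match describes the letters of the window and is not evidence of binding.

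Evx1 transcripts numbered 2358, 2176 and 2400 normalized counts in wildtype replicates 1, 2 and 3. In the same order the EVX1-Δfs libraries held 2354, 2516 and 2012. The groups overlapped, and the lowest and the highest of the 6 libraries were both EVX1-Δfs. The EVX1-Δfs mean of 2294 ± 258 stood beside a wildtype mean of 2311 ± 119 (SD, n = 3), with a log2 change of -0.02 ± 0.11 (SE) at a limma adjusted p of 0.950. The 95% interval ran from 84.0% to 116% of the wildtype level.

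Evx1as, the long non-coding RNA of the locus, was at 398, 453 and 483 normalized counts in wildtype and at 463, 451 and 417 in EVX1-Δfs EBs. The EVX1-Δfs values lay within the wildtype range. The mean was 445 ± 43.2 in wildtype and 444 ± 23.7 in EVX1-Δfs (SD, n = 3), with a log2 change of 0.00 ± 0.12 (SE), a limma adjusted p of 0.999 and an interval from 83.6% to 120% of wildtype. The antisense reads amounted to 16.9% to 20.8% of the Evx1 reads in the wildtype libraries and 17.9% to 20.7% in EVX1-Δfs, without correction for length. The log2 ratio of Evx1as to Evx1 differed by 0.02 between the groups (two-sided exact permutation p of 0.9, where 3 libraries against 3 cannot give less than 0.1). Whether reads were counted by strand is given only through the standard settings of HTSeq, so those in the 73 shared bases are uncertain for both genes.

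Of the 8 genes, all of which passed the filter on low values, 3 were called lower and 0 higher in limma, and 0 were higher at an unadjusted p under 0.05. Among all genes tested, 5.02% were called, with 2.95% lower and 2.08% higher. DESeq2 also called 3 of the 8 lower (4.45% of the genes with an adjusted p), as did limma with GC and length trends removed (1.39%), whereas limma with the replicate block called 1, Mixl1 (1.11%). The median log2 change of the 8 was -0.27, and that of the 6 streak factors was -0.39, beside 0.00 over all genes tested.

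T, the Brachyury gene (chr17:8627288-8635361), was at 4640, 3990 and 5299 normalized counts in wildtype and at 2759, 3610 and 2933 in EVX1-Δfs EBs. All EVX1-Δfs libraries lay below all wildtype libraries, a separation seen in this direction for 14.7% of all genes tested and in either direction for 26.9%. The mean fell from 4643 ± 655 to 3101 ± 450 (SD, n = 3), a log2 change of -0.58 ± 0.13 (SE) at a limma adjusted p of 0.0122. The interval was 55.6% to 80.2% of wildtype. The same-numbered pairs differed by -0.75, -0.14 and -0.85 on the log2 scale. With groups that do not overlap, any pairing gives differences below 0. With the replicate block the limma adjusted p was 0.0566, and without EVX1-Δfs replicate 1 it was 0.0748. Without wildtype replicate 3 the log2 fold change was -0.48 and was still called (limma adjusted p of 0.0269).

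Eomes (chr9:118387330-118395250), the other T-box gene, was at 2761, 3095 and 3783 normalized counts in wildtype and at 2268, 2336 and 2167 in EVX1-Δfs EBs. The groups did not overlap, and the EVX1-Δfs libraries were closely grouped. The mean fell from 3213 ± 521 to 2257 ± 84.9 (SD, n = 3), with a log2 change of -0.50 ± 0.12 (SE), a limma adjusted p of 0.0194 and an interval from 59.7% to 84.1% of wildtype. All 3 pairs were lower in EVX1-Δfs, as any pairing of groups that do not overlap would be. This call was the least stable of the 3: the limma adjusted p was 0.0586 with the block, 0.0547 without wildtype replicate 3, 0.0665 without EVX1-Δfs replicate 1 and 0.0786 without EVX1-Δfs replicate 3.

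Mixl1 (chr1:182623174-182627165) was at 1089, 1296 and 1436 normalized counts in wildtype and at 680, 893 and 580 in EVX1-Δfs EBs. The groups were separated, with the highest EVX1-Δfs library below the lowest wildtype library. The mean fell from 1274 ± 175 to 718 ± 160 (SD, n = 3), a log2 change of -0.84 ± 0.14 (SE) at a limma adjusted p of 0.00143, with an interval from 45.6% to 68.4% of wildtype. With the replicate block the limma adjusted p was 0.0168. The log2 fold change was -0.75 without wildtype replicate 3 and -0.70 without EVX1-Δfs replicate 3, and the limma adjusted p across the 6 fits that left out 1 library was at most 0.0114.

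**Figure D2:**
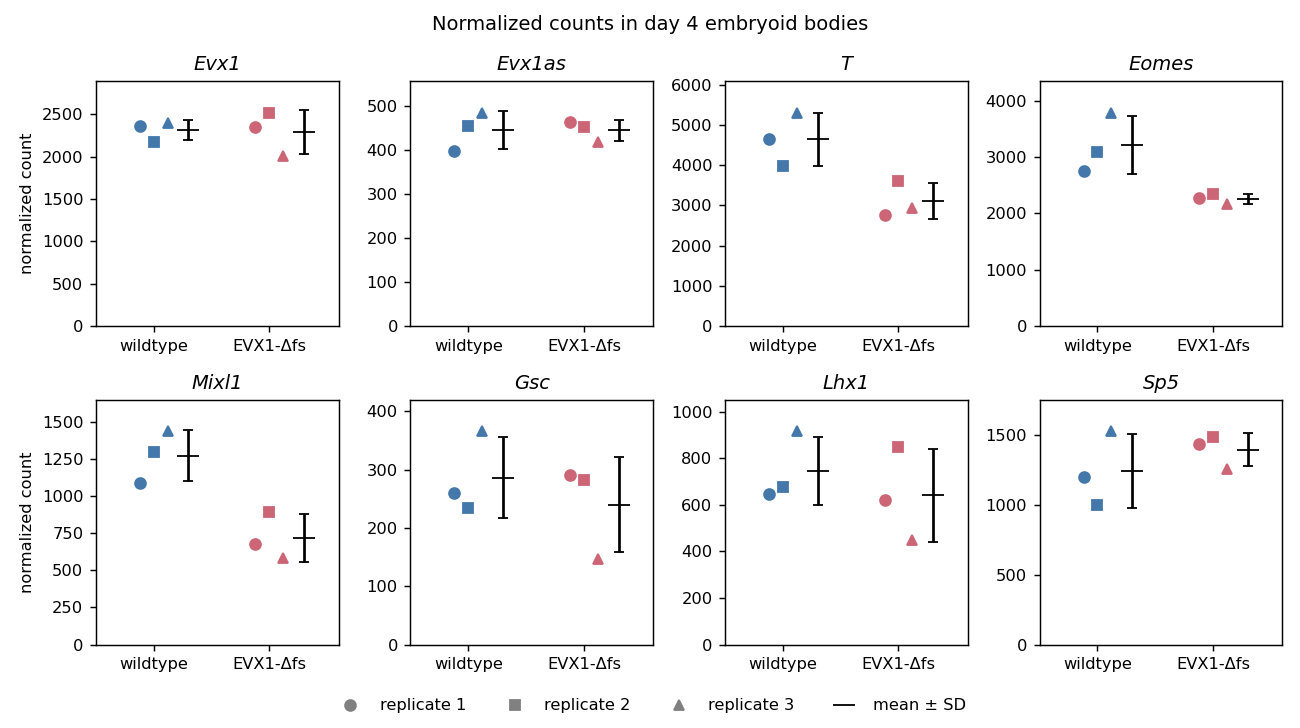
Normalized counts of the 8 genes (vertical axes, each from 0) in wildtype (blue) and EVX1-Δfs (red) EBs, with a symbol for each replicate and black bars for the mean ± SD of 3 libraries. The EVX1-Δfs libraries lie below all wildtype libraries for T, Eomes and Mixl1, and the groups overlap for the other 5 genes.

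The anterior streak genes gave no call, and their values in EVX1-Δfs EBs were spread. Gsc (chr12:105709419-105711537) was at 259, 234 and 365 normalized counts in wildtype and at 291, 282 and 147 in EVX1-Δfs. EVX1-Δfs replicate 3 was the lowest library, while the other EVX1-Δfs libraries lay inside the wildtype range. The mean was 286 ± 69.8 in wildtype and 240.0 ± 80.9 in EVX1-Δfs (SD, n = 3), with a log2 change of -0.29 ± 0.21 (SE), a limma adjusted p of 0.413 and an interval from 60.8% to 110% of wildtype. The direction rested on 1 library, since without EVX1-Δfs replicate 3 the log2 fold change was 0.03 (limma adjusted p of 0.952). Without wildtype replicate 3 it shrank to -0.10 (limma adjusted p of 0.839). Gsc had the fewest reads of the 8 genes, down to 154 in a library, which gives a counting error of 8.06% there.

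Lhx1 (chr11:84331479-84338923), which encodes a LIM homeodomain protein, was at 649, 677 and 916 normalized counts in wildtype and at 623, 850 and 451 in EVX1-Δfs. The groups overlapped, and replicate 3 was again the highest wildtype and the lowest EVX1-Δfs library. The mean was 747 ± 147 in wildtype and 641 ± 200 in EVX1-Δfs (SD, n = 3), with a log2 change of -0.25 ± 0.17 (SE), a limma adjusted p of 0.393 and an interval from 65.8% to 107% of wildtype. Without EVX1-Δfs replicate 3 the log2 fold change was -0.02, and without wildtype replicate 3 it was -0.10. The intervals of Gsc and Lhx1 include both no change and a fall as large as the point estimate of T.

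Sp5 (chr2:70312980-70315786) was at 1204, 998 and 1529 normalized counts in wildtype and at 1441, 1486 and 1262 in EVX1-Δfs. All EVX1-Δfs values lay within the wildtype range. The mean was 1244 ± 267 in wildtype and 1396 ± 119 in EVX1-Δfs (SD, n = 3), with a log2 change of 0.19 ± 0.13 (SE), a limma adjusted p of 0.419 and an interval from 93.9% to 138% of wildtype. It was the 1 streak factor of 6 whose estimate was above 0 in every alternative fit, from 0.04 to 0.39, with 0 of these 18 fits calling it. The estimate was 0.34 without wildtype replicate 3 and 0.26 without EVX1-Δfs replicate 3.

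Replicate 3 gave the lowest pair difference of all 8 genes, against 38.6% of all genes tested. Its log2 differences were -0.25 for Evx1, -0.21 for Evx1as, -0.85 for T, -0.80 for Eomes, -1.31 for Mixl1, -1.31 for Gsc, -1.02 for Lhx1 and -0.28 for Sp5. In replicate 2 the corresponding differences of Evx1, Gsc, Lhx1 and Sp5 were above 0, at 0.21, 0.27, 0.33 and 0.57.

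Across all genes, fold changes were lower at higher GC content (rho of -0.460 by Spearman's rank correlation across 12978 genes, which are not independent). Gsc, Sp5 and Evx1 (61.2% to 66.5%) lie above the median GC content of 50.3%, T and Eomes are both at 52.7%, and Mixl1 is below it at 48.5%. After removal of GC and length trends, the log2 fold change was -0.86 for Mixl1, -0.49 for T and -0.43 for Eomes, all still called. It was 0.18 for Evx1, 0.39 for Sp5 and -0.05 for Gsc, none of them called (limma adjusted p of 0.377, 0.0918 and 0.918).

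**Figure D3:**
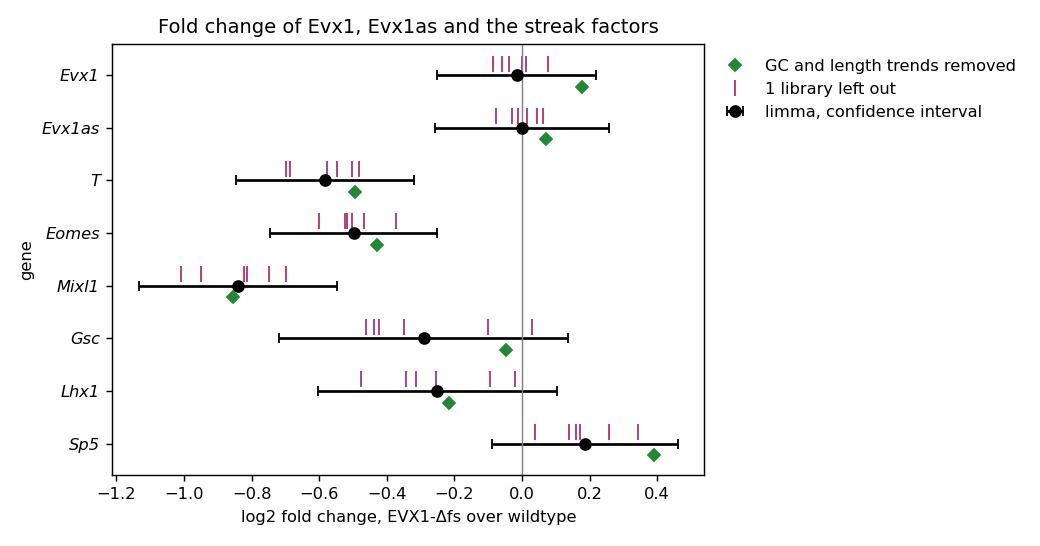
Log2 fold change of each gene, EVX1-Δfs over wildtype (horizontal axis), as limma estimates with 95% intervals (black), fits with 1 library left out (ticks) and fits with GC and length trends removed (diamonds). The intervals of T, Eomes and Mixl1 lie below 0, and those of the other 5 genes include 0.

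Ratios within a library do not depend on the scaling between libraries, so the normalized count of each streak factor was also set against that of Evx1, without correction for length. T stood at 183% to 221% of Evx1 in the wildtype libraries and at 117% to 146% in EVX1-Δfs. Eomes stood at 117% to 158% against 92.8% to 108%, and Mixl1 at 46.2% to 59.8% against 28.8% to 35.5%. These 3 ratios did not overlap between the groups and differed by -0.57, -0.48 and -0.82 on the log2 scale (exact permutation p of 0.1 each, the smallest possible, and 0.2 after Benjamini-Hochberg adjustment over 6 ratios). Of all single genes tested, 26.9% did not overlap in either direction. The ratios reuse the counts given above and are not separate evidence of the falls. The ratios of Gsc, Lhx1 and Sp5 to Evx1 overlapped, with differences of -0.27, -0.23 and 0.20 (exact permutation p of 0.6, 0.4 and 0.4).

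**Figure D4:**
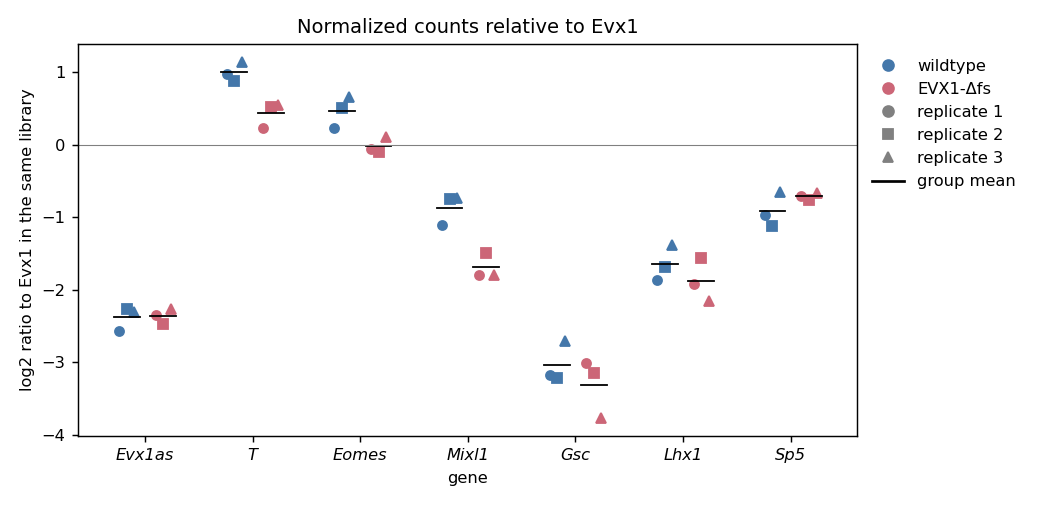
Log2 ratio of the normalized count of each gene to that of Evx1 in the same library (vertical axis) for wildtype (blue) and EVX1-Δfs (red) replicates, with lines at the group means. The EVX1-Δfs ratios of T, Eomes and Mixl1 lie below all wildtype ratios, and the other ratios overlap.

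The streak factors were also compared with each other in 15 pairs, a comparison chosen after their values had been seen. The groups did not overlap in 5 pairs (exact permutation p of 0.1 each, 0.3 after adjustment over 15), of which 4 had Sp5 as the denominator. This count is near the 26.9% of all single genes tested that did not overlap, and the share over all pairs of genes was not computed. The ratio of Mixl1 to Sp5 was 0.904, 1.30 and 0.939 in wildtype and 0.472, 0.601 and 0.460 in EVX1-Δfs, a log2 difference of -1.03 between the groups. The ratio of T to Sp5 was 3.47 to 4.00 in wildtype and 1.92 to 2.43 in EVX1-Δfs, and that of Eomes to Sp5 was 2.29 to 3.10 and 1.57 to 1.72. Gsc to Sp5 was 0.215 to 0.239 against 0.116 to 0.202, and Mixl1 to Lhx1 was 1.57 to 1.92 against 1.05 to 1.29. Among the 3 genes that fell, the ratios overlapped between the groups, with log2 differences of -0.08 for T to Eomes, 0.26 for T to Mixl1 and 0.34 for Eomes to Mixl1 (exact permutation p of 0.6, 0.3 and 0.2).

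Levels were compared between genes as reads per kb of annotated exon, scaled to a common library total (RPKM). In wildtype EBs, T was the highest at 219 ± 21.0 RPKM (SD, n = 3), followed by Evx1 at 87.9 ± 2.55, Eomes at 84.4 ± 10.5, Sp5 at 64.5 ± 10.8 and Mixl1 at 60.7 ± 7.02. Gsc (24.6 ± 4.78), Lhx1 (19.8 ± 2.97) and Evx1as (16.1 ± 1.33) were lower. The ranges of Evx1 and Eomes, Eomes and Sp5, Sp5 and Mixl1, and Gsc and Lhx1 overlapped, so these neighbours in the order did not differ beyond their spread. In EVX1-Δfs EBs the order was T (157 ± 23.3), Evx1 (93.1 ± 9.11), Sp5 (77.7 ± 5.31), Eomes (63.5 ± 1.83), Mixl1 (36.5 ± 7.91), Gsc (22.1 ± 7.07), Lhx1 (18.2 ± 5.54) and Evx1as (17.2 ± 0.519), and here Sp5 and Eomes had changed places with ranges that did not overlap. By mean level per length over all libraries, T ranked 250 and Evx1 589 of 12978 genes tested.

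The genes whose signals act on the streak were examined next. Of 11 ligands, co-receptors and convertases, 10 were tested, 3 were called lower and 1 higher, with a median log2 change of -0.21. Wnt3, the ligand that induces the streak, fell to 623 ± 41.3 normalized counts from 910.3 ± 47.0 in wildtype (SD, n = 3 each), a log2 change of -0.55 at a limma adjusted p of 0.00877 (0.0343 with the block). Bmp4 fell from 1236 ± 219 to 808 ± 164 (limma adjusted p of 0.0163), but lost its call without wildtype replicate 2 or EVX1-Δfs replicate 1 (0.0623 and 0.106). Wnt3a, at 39.8 ± 12.2 and 12.2 ± 8.07 normalized counts, was called lower (log2 change of -1.75, limma adjusted p of 0.0131), but not with the block (0.0564) or without wildtype replicate 3 or EVX1-Δfs replicate 1 (0.0595 and 0.0613). Fgf4 was called higher, at 233 ± 20.9 against 153 ± 8.48 (limma adjusted p of 0.0221), but not with the block (0.0579) or without replicate 1 of wildtype or replicate 1 or 3 of EVX1-Δfs (0.0689 to 0.0976). Nodal (-0.18, limma adjusted p of 0.511) and Fgf8 (-0.39, 0.0891) were not called, and Gdf1 had 0 reads.

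Of 11 nuclear effectors of these signals, 2 were called lower and 0 higher, with a median log2 change of -0.11. Foxh1, the forkhead partner of SMAD proteins in NODAL signalling, fell to 1159 ± 111 normalized counts from 1784 ± 248 in wildtype (SD, n = 3 each), a log2 change of -0.62 at a limma adjusted p of 0.00551. Lef1, a nuclear effector of WNT signalling, had a log2 change of -0.58 (limma adjusted p of 0.0168), and lost its call without replicate 2 of wildtype or replicate 1 or 3 of EVX1-Δfs (0.0564 to 0.104). The 5 SMAD genes, Ctnnb1 and the other 3 TCF genes were not called, with log2 fold changes from -0.25 for Tcf7 to 0.36 for Tcf7l2. Of 12 WNT feedback and target genes, the class to which Sp5 belongs, 3 were called lower and 0 higher, with a median of -0.21. These were Nkd1 (-0.57, limma adjusted p of 0.00729), Lef1 and Ccnd1 (-0.51, 0.0107), of which Ccnd1 had an adjusted p of 0.0549 without EVX1-Δfs replicate 1. Axin2, a widely used WNT reporter gene, was not called, at 1060 ± 113 and 956 ± 205 normalized counts (-0.16, limma adjusted p of 0.493).

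Of 11 other transcription factors of the streak and nascent mesendoderm, all tested, 6 were called lower and 2 higher, with a median log2 change of -0.90. Msgn1, a regulator of presomitic mesoderm, fell to 82.3 ± 28.4 normalized counts from 209 ± 12.5 in wildtype (SD, n = 3 each), a log2 change of -1.39 at a limma adjusted p of 3.00e-04. Mesp1, which marks the earliest cardiovascular mesoderm, fell from 1331 ± 150 to 662 ± 141 (-1.02, limma adjusted p of 1.81e-04). Tbx6, a T-box gene of paraxial mesoderm, was at 84.7 ± 11.5 and 41.7 ± 3.75 (limma adjusted p of 0.0109). Mesp2 (-0.95, limma adjusted p of 0.0141) was not called with the block (0.0628) or without wildtype replicate 3 or EVX1-Δfs replicate 3 (0.0606 and 0.0790). Snai1, a driver of epithelial-mesenchymal transition, and the posterior gene Cdx2 fell as well (-0.90 and -0.70).

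Foxa2, a forkhead gene of the anterior streak and endoderm, was among those called higher. It was at 45.7 ± 16.4 and 96.1 ± 22.3 normalized counts in the wildtype and the edited EBs (SD, n = 3 each), a log2 change of 1.09 (limma adjusted p of 0.0159). With the block it was not called (limma adjusted p of 0.0667), and its call also ended when EVX1-Δfs replicate 1 or 2 was left out (0.0691 and 0.0714).

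Of 12 genes known as targets of T or EOMES, which share 6 genes with that list and 2 with the signals, 6 were called lower and 3 higher, with a median of -0.64. The lower one not yet named was Dll1 (-0.72, limma adjusted p of 0.0373), which encodes a NOTCH ligand and whose call was lost with the block (0.0729) and in each of the 6 fits without 1 library. The higher ones were Cer1, Foxa2 and Sox17, all expressed in anterior endoderm. Hhex, on the same list, went the other way without a call (log2 change of -0.57, limma adjusted p of 0.129). Its mean was 68.9 ± 10.1 normalized counts for wildtype and 46.1 ± 5.20 for EVX1-Δfs (SD, n = 3 each). The groups did not overlap, as for 14.7% of all genes tested in this direction. Cer1, which encodes a secreted inhibitor of NODAL, BMP and WNT ligands, rose to 377 ± 72.8 normalized counts from 33.9 ± 14.3 in wildtype (SD, n = 3 each), a log2 change of 3.49 at a limma adjusted p of 2.37e-09. Sox17 (0.91, limma adjusted p of 0.0334) was not called with the block (0.0564), nor without replicate 1 or 3 of wildtype or 1 or 2 of EVX1-Δfs (0.0505 to 0.133).

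Among 7 cofactors of LIM homeodomain proteins such as LHX1, 1 was called in each direction, with a median of -0.18. Ssbp4 was lower (-0.55, limma adjusted p of 0.0194) and Rlim, a ubiquitin ligase that acts on LIM cofactors, was higher (0.54, 0.0149). Ssbp4 was not called with the block (0.0545) or without wildtype replicate 1 or EVX1-Δfs replicate 3 (0.0552 and 0.146), and Rlim lost its call without EVX1-Δfs replicate 1 or 3 (0.0814 and 0.0598). Ldb1, the central LIM cofactor, had a log2 change of -0.30 (limma adjusted p of 0.108). Of 10 close paralogs of the 8 genes, 4 were tested (Sp1, Sp3, Sp4 and Sp8) and 0 were called, with 1 lower and 1 higher at an unadjusted p under 0.05 and 0 called by edgeR or DESeq2. Evx2 and Tbx19 had 0 reads, and Gsc2, Tbr1, Tbx21 and Lhx5 stayed at or below 15.8 normalized counts in every library.

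These 7 lists together held 62 genes, of which 55 were tested, 15 were called lower and 6 higher, beside 2.95% and 2.08% of all genes. Of the 21 called genes, 13 were also called with the replicate block and 9 in each of the 6 fits without 1 library. Those 9 were Wnt3, Foxh1, Nkd1, Msgn1, Mesp1, Tbx6, Snai1, Cdx2 and Cer1. With GC and length trends removed, the lists had 11 genes called lower and 4 higher, beside 181 and 99 of 12978 genes. Which of the 9 kept their call in that fit is not given here.

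**Figure D5:**
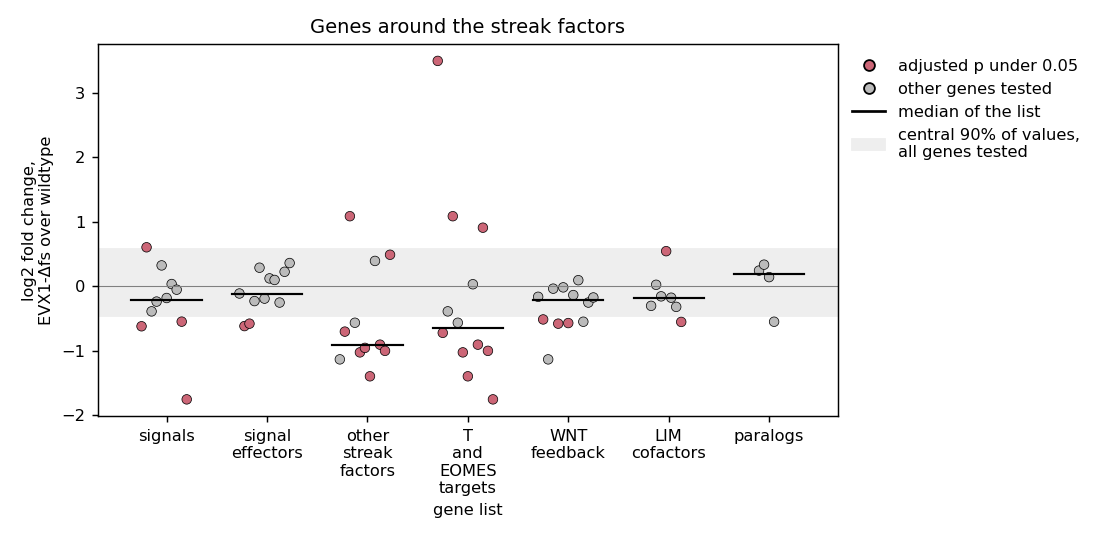
Log2 fold change, EVX1-Δfs over wildtype (vertical axis), of each gene tested in 7 lists around the streak factors, with red points for an adjusted p under 0.05 and lines at the list medians. The band spans the central 90% of all genes tested, and the lists of other streak factors and of T and EOMES targets have the lowest medians, -0.90 and -0.64.

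Markers of other cell types that EBs can hold were set beside these results. Summed pluripotency markers ranged from 11249 to 16524 normalized counts in wildtype and from 12834 to 15373 in EVX1-Δfs libraries. Most of this sum was Pou5f1 (7544 ± 2179 and 7167 ± 946, SD, n = 3 each). Of 8 genes 0 were called in limma, with 4 higher at an unadjusted p under 0.05. These were Nanog, Sox2, Zfp42 and Esrrb, with log2 changes of 0.40 to 0.45 (limma adjusted p of 0.0544 to 0.0559). Their groups did not overlap, as for 12.2% of all genes tested in this direction. Klf4 was separated likewise, and Dppa5a in the other direction. Both edgeR and DESeq2 called 4 of the 8. Of all genes, edgeR called 309 higher and 378 lower, and DESeq2 284 and 517. Summed epiblast markers ranged from 7451 to 12543 and from 11618 to 15171, with a median log2 change of 0.41 and 4 of 5 higher at an unadjusted p under 0.05. Of these, Fgf5 was called (0.61, limma adjusted p of 0.0293, 0.0624 with the block, and not called without replicate 1 or 2 of either genotype). The share of all genes tested at an unadjusted p under 0.05 was not computed. The counts at that threshold, here and for the paralogs, were therefore not compared with all genes. The shares of all genes called, given above, are at an adjusted p and are no background for these counts. Neurectoderm markers Sox1, Zic1, Hes5 and Six3 reached at most 4.76 normalized counts, and 3 others were tested. Nes had a log2 change of 0.00. Pax6 had one of 1.31 (limma adjusted p of 0.0803), with all EVX1-Δfs libraries above all wildtype ones, as for 12.2% of all genes tested. Its level was low, at 83 reads over all libraries. The Pax6 mean was 7.75 ± 3.82 normalized counts for wildtype and 19.8 ± 6.83 for EVX1-Δfs (SD, n = 3 each). Sox3 was lower (-0.77, limma adjusted p of 0.0373). It was not called with the block (0.0864), nor without replicate 1 or 3 of wildtype or 2 or 3 of EVX1-Δfs.

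Visceral endoderm markers summed to 63.7 to 95.0 normalized counts in wildtype and 83.1 to 118 in EVX1-Δfs, with Afp, Ttr and Apoa1 at or below 3.81 and 0 of 2 tested genes called, also 0 at an unadjusted p and in edgeR and DESeq2. Haematoendothelial markers summed to 3054 to 4029 in wildtype and 1799 to 2041 in EVX1-Δfs. Of 7 tested, 3 were lower: Kdr (-0.91, limma adjusted p of 2.03e-04), Etv2 (-1.10, 4.94e-05) and Lmo2 (-0.64, 0.0167), the last losing its call without wildtype replicate 2 or EVX1-Δfs replicate 1 (0.0799 and 0.0759). The others were not called, with log2 changes below 0 for Cdh5 (-0.94) and Tal1 (-0.49) and above 0 for Gata1 (0.67) and Pecam1 (0.16). The list of extraembryonic ectoderm summed to 2510 to 4219 and 1217 to 1641, most of it Hand1 (-1.28, limma adjusted p of 9.36e-05), a gene that early mesoderm also expresses, while Elf5 and Prl3d1 were at or near 0. The part of these shifts in the lower T, Eomes and Mixl1 was not tested.

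The genes most like Evx1 over the 6 libraries, among 10629 genes with a mean of at least 50 normalized counts, were Fbxl16 (Pearson's r of 0.992), Atp6v0a1 (0.987) and Comtd1 (0.982). Evx1as ranked 2490 (0.37), below Gsc at rank 87 (0.87) and Lhx1 at rank 133 (0.84). Those most like Mixl1 were Nxph4 (0.995), Def6 (0.995) and Lrrc27 (0.993). Eomes ranked 255 (0.93) and T 389 (0.91) in likeness to Mixl1, whereas Sp5 ranked 6476 (-0.18). These are descriptions over 6 libraries that include both genotypes.

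Within 200 kb of Evx1 the annotation places 26 other genes, of which 14 are listed in the table. Those below the filter on low values had no library above 13.3 normalized counts, and 5 had 0 reads, so a difference in these genes was not detectable at this depth.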

How the data were processed

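Embryoid bodies of 3 wildtype and 3 EVX1-Δfs differentiations were profiled by mRNA-seq. According to the labels and methods, the authors sequenced on an Ion Proton, mapped reads to mm9 with TopHat2 and TMAP and counted them per gene with HTSeq; versions and the gene annotation are not given in the sources used here. The deposited signal is read counts divided by 1 factor per library, from which whole reads were recovered for 100% of values (largest distance 5.45e-05, tolerance 0.001). Of 23353 genes, 5108 had 0 reads throughout.

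Genes with at least 10 normalized counts in at least 3 libraries (13136) were tested with limma 3.58.1 (R 4.3.3, mean-variance trend) on log2(normalized count + 1), which understates the change of low genes, with genotype as the only term and Benjamini-Hochberg adjustment over all genes. edgeR 4.0.16 (quasi-likelihood) and DESeq2 1.42.0 on the recovered reads, other pseudocounts, filters and scalings, removal of GC and length trends (splines with 5 degrees of freedom), a replicate block and fits without 1 library were alternatives. The limma, edgeR and DESeq2 fits with genotype as the only term were tested on simulated data in which known genes changed. The other alternatives were not. Single ratios were tested with exact permutation tests.

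Per the study's text, wildtype and clone 14 EBs compared with each other were started together, and each such set on its own day. The labels give replicate numbers and no day, so these numbers were taken to mark the day and to pair libraries. Deviations from group means correlated at 0.111, 0.00933 and -0.101 in pairs 1, 2 and 3 across 13136 genes. Between libraries of unlike number they correlated at -0.141 to 0.131, so these values do not show that the numbers pair libraries.

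Positions, exon lengths and GC content came from GENCODE vM1 on NCBIM37, where 94.1% of symbols matched, and start regions from the NCBIM37 sequence. The guide is the one the study lists. Genes named were the 8 genes, up to 4 called genes per direction and list with the largest fold changes, the 3 genes most like Evx1 and Mixl1, and genes within 200 kb of Evx1. Some genes that met this rule are not reported here. Others (Nodal, Fgf8, Gdf1, Hhex, Axin2, Ldb1, the SMAD, TCF and paralog genes, and markers not called) were named after their values were seen. The 8 genes and all lists were chosen with earlier results of these data known.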

Additional observations from a re-analysis of the deposited data

How the results depend on the processing

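Against 273 genes called higher and 387 lower, the replicate block gave 76 and 146 in limma, 67 and 126 in edgeR and 77 and 207 in DESeq2. Removing GC and length trends gave 99 and 181, and 69 and 131 with the block. Leaving out 1 library gave 80 to 340 higher (91 without EVX1-Δfs replicate 1, 80 without EVX1-Δfs replicate 3 and 134 without wildtype replicate 3) and 140 to 362 lower (140 and 142 without EVX1-Δfs replicates 1 and 3, 236 and 244 without wildtype replicates 1 and 3). With upper-quartile scaling 53.2% of calls were higher against 41.4%, while the median log2 fold change of all genes moved from 0.000216 to 0.0287. Of the 8 genes, 3 were called lower; Mixl1 was the 1 still called with the block in limma or edgeR, with the block and the trends removed, and without EVX1-Δfs replicate 1 (range 1 to 3 when a library was left out). The block in limma changed no call among the 8 other than those of T and Eomes, and in DESeq2 it changed none of the 3. The pathway lists had 15 genes called lower and 6 higher. The lower count was 9 with the block and trends removed. The higher count was 2, 1 and 2 with the block in limma, edgeR and DESeq2, and 1 to 6 when a library was left out (1 without EVX1-Δfs replicate 1, 3 without wildtype replicate 1 or EVX1-Δfs replicate 3). What caused these shifts was not tested.

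Values near 0 changed sign. The log2 fold change of Evx1 was 0.000334 in edgeR, 0.0126 with upper-quartile scaling and 0.176 after removal of the trends (the same with the block), and ran from -0.0858 to 0.0755 when a library was left out. That of Evx1as was -0.00186 in DESeq2 and ran from -0.0773 to 0.0623, that of Gsc from -0.463 to 0.0296. The log2 ratio of Evx1as to Evx1 ranged from -0.0764 without wildtype replicate 1 to 0.0748 without wildtype replicate 2 and was -0.0316 without EVX1-Δfs replicate 3. Adjusted p of T was 0.0673 with the edgeR block and 0.0709 with the block and trends removed, and of Eomes 0.0699 and 0.0816. Lhx1, Sp5 and the ratios of the 6 streak factors to Evx1 kept their direction and side of the threshold throughout, though no such ratio could pass it with 3 libraries a group.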
